A study of Mus musculus with 24 samples.

Results

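The 8 genes described here are Hamp2, Trf, Tfrc, Slc11a2, Slc40a1, Fth1, Ftl1 and Lcn2. Hamp2 is a hepcidin gene, and the products of the others carry, import, export, store or sequester iron. The set makes up 8 of 36806 genes in the deposited table, found in it by symbol. The set was chosen by measured values of the same libraries: Hamp2 was lower and Lcn2 higher after caerulein, and Trf differed between genotypes in saline. Those contrasts are therefore given for these 3 genes as a description, with no test, and so is every other comparison of Trf with saline. All 8 genes passed the filter on low values and were tested in every other comparison.

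Iron travels in blood bound to transferrin, which cells take up through the transferrin receptor. Inside the cell it leaves the endosome through the transporter DMT1 and is used, stored in ferritin or exported through ferroportin. Hepcidin, a peptide hormone made mainly by the liver, binds ferroportin and causes its degradation, and its transcription answers to bone morphogenetic protein (BMP) and interleukin-6 signals. Mice have a pair of hepcidin genes, of which Hamp2 is known to be expressed in pancreas as well as liver. Whether the Hamp2 product acts on ferroportin was not tested here. Iron regulatory proteins bind stem-loops called iron-responsive elements in several of these mRNAs, and so adjust ferritin and ferroportin translation and transferrin receptor mRNA stability to the iron content of the cell.

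The samples were whole pancreas of C57BL mice, sequenced as polyadenylated RNA. HET mice carried 1 intact Nr5a2 allele (+/-) and WT mice both (+/+); Nr5a2 encodes a nuclear receptor that drives digestive enzyme genes in acinar cells. Mild acute pancreatitis was caused by caerulein, which mimics cholecystokinin and overstimulates acinar secretion, given into the peritoneum as 7 hourly doses of 50 ug/kg. The animals' age and sex are not in the labels, and no group pooled animals as far as the labels say. HET and WT mice were each killed after saline or 8, 24 or 48 h after the first caerulein injection, which made 8 groups of 3 animals. Values are FPKM, that is fragments per kilobase of transcript after scaling by library depth, so levels of different genes can be compared per length.

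Nr5a2 itself averaged 8.63 ± 0.557 FPKM in HET and 10.7 ± 1.72 FPKM in WT saline pancreas (SD, n = 3 each), with HET below WT in the group means of all 4 conditions, without overlap in saline and at 8 h and with overlap at 24 and 48 h. Acinar markers dominated the saline libraries: 8 of 15 could be summed in all groups, to 148600 to 273371 FPKM in HET and 158330 to 247877 FPKM in WT. Sums over all genes ran from 217205 to 1400108 FPKM per library. Among them 2 libraries stood apart: HET saline replicate 1 had the highest sum, and HET 48 h replicate 3 had the lowest, with an acinar marker sum of 305.5 FPKM against 6869 and 3255 FPKM in the other two of its group. Saline and 24 h libraries followed an earlier preparation guide than the 8 and 48 h ones, so 8 or 48 h cannot be told apart from guide when set against saline, whereas 48 h against 8 h and each genotype difference lie within a guide (1 WT saline library, replicate 3, is in neither guide list). In whole tissue, fewer cells of a type and less RNA per cell cannot be told apart.

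The iron-responsive elements are shown because iron regulatory proteins act through them after transcription, which mRNA levels do not fully reflect. The search looked for an unpaired C, 5 bases, the loop CAGTG followed by A, C or T, and 5 bases pairing with the first 5, in the sense strand of GENCODE M21 transcripts (GRCm38). Each window of 30 bases has its loop in capitals.
Fth1, 5′ UTR, chr19:9982732-9982761, plus strand: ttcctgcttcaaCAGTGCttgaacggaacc
Ftl1, 5′ UTR, chr7:45459778-45459807, minus strand: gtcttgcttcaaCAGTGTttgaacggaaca
Slc40a1, 5′ UTR, chr1:45925464-45925493, minus strand: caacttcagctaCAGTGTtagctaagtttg
Tfrc element 1, 3′ UTR, chr16:32631219-32631248, plus strand: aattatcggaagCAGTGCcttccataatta
Tfrc element 2, 3′ UTR, chr16:32631598-32631627, plus strand: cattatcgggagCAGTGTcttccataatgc
Tfrc element 3, 3′ UTR, chr16:32631663-32631692, plus strand: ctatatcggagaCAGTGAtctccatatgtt
Tfrc element 4, 3′ UTR, chr16:32631710-32631739, plus strand: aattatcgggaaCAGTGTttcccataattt
Fth1, Ftl1 and Slc40a1 held 1 match each in the 5′ UTR and Tfrc 4 in the 3′ UTR. No match was found in Hamp2, Trf, Slc11a2 or Lcn2. The pattern allows no bulge in the paired stem, and the iron-responsive element known from the 3′ UTR of some Slc11a2 transcripts has one, so the lack of a match says nothing of control by iron. Of all protein-coding genes searched, 222 of 21901 (1.01%) held such a match.

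The hepcidin promoters are shown because Hamp2 carried the largest fold differences of the set while its sister gene Hamp was almost absent. Hamp was above 0 FPKM in 6 of 24 libraries and reached at most 1.01 FPKM, and how reads that fit both genes were assigned is not visible in the table. Matching stretches of 100 bases upstream of the RefSeq start sites follow (GRCm38.p6), with the motifs GGCGCC and TTCTTGGAA in capitals.
Hamp2 upstream stretch, chr7:30924209-30924308, minus strand: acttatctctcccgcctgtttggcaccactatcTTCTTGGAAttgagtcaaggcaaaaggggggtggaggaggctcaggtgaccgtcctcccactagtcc
Hamp upstream stretch, chr7:30944060-30944159, minus strand: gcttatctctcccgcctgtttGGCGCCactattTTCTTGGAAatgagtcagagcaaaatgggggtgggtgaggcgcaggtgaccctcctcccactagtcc
The RefSeq start site of Hamp2 lies 500 bases inside the longer GENCODE gene span given with its values, and that of Hamp 3 bases inside its span, so the Hamp2 stretch falls within the GENCODE gene. The stretches were identical at 89 of 100 bases. GGCGCC, the core of a BMP-responsive element known from Hamp, stood at position 22 of the Hamp stretch only, counted from 1 at the 5′ end, and the substitution G25A lies within it (Hamp base first). TTCTTGGAA, the interleukin-6 responsive STAT3 site known from hepcidin promoters, stood at position 34 in both. Both strands were searched and the motifs do not overlap each other. Over the 250 bases upstream of 32851 RefSeq promoters, GGCGCC occurred in 9.59% and TTCTTGGAA in 0.365%. The RefSeq promoter table matched 5 of the 8 genes, and Trf, Slc40a1 and Slc11a2 were not among them.

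**Figure D1:**
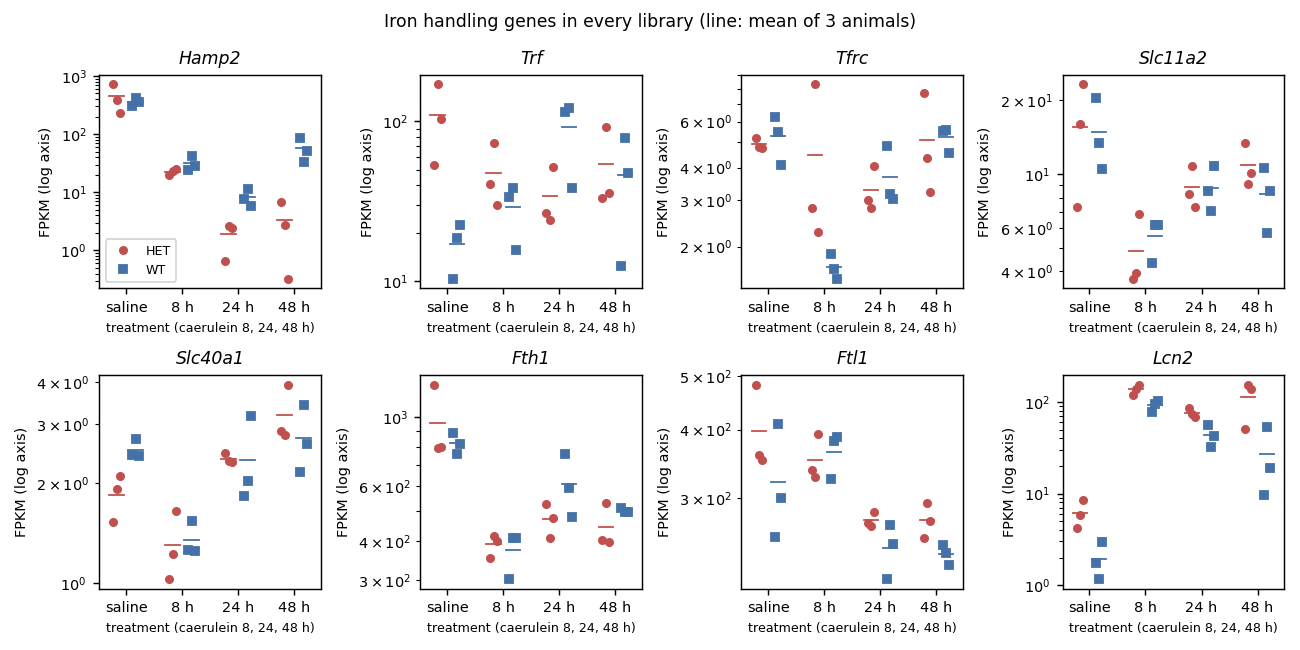
FPKM of the 8 iron genes (log axis) in each of the 24 libraries, by treatment (saline, then 8, 24 and 48 h after caerulein), with HET as red circles left of WT as blue squares and the mean of 3 animals as a line. Hamp2 in HET at 48 h lies between 0.328 and 6.82 FPKM, below every WT library of that time (33.6 to 84.1 FPKM), and Lcn2 in HET averages above WT in each of the 4 conditions.

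Per length, the ferritins were the most abundant of the set, with means over the 24 libraries of 570 FPKM for Fth1 and 308 FPKM for Ftl1. Hamp2 averaged 116 FPKM, Lcn2 62.4 FPKM and Trf 53.8 FPKM, and all 3 varied widely between groups. The transporters and the receptor were low, with means of 9.67 FPKM for Slc11a2, 4.2 FPKM for Tfrc and 2.20 FPKM for Slc40a1. The library ranges of neighbours in this order overlapped throughout, so the order holds for the means and not for each library.

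Between genotypes, Hamp2 was lower and Lcn2 higher in HET pancreas after caerulein, and no other member passed the test. At 48 h these were 2 of the 8 members called at an adjusted p under 0.05 (limma on log2(FPKM + 1), Benjamini-Hochberg over all genes tested), against 12.2% of all genes. The same 2 of 8 were called in the mean of the 8, 24 and 48 h differences, against 17.2% of all genes. Both genes were chosen for their change after caerulein, in libraries that these comparisons also use. So 2 of 8 is not a count among unselected genes, and the p-values of Hamp2 and Lcn2 carry that limit. The limit also holds for their tests of 48 h against 8 h. No member was called by limma in saline (0 of 7 tested, against 2.36% of all genes), at 8 h (0 of 8, against 0.218%) or at 24 h (0 of 8, against 6.50%). At an unadjusted p under 0.05 there was 1 member in each of these 3: Lcn2 in saline, Tfrc at 8 h and Hamp2 at 24 h. Without trend and robust moderation the numbers were the same.

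**Figure D2:**
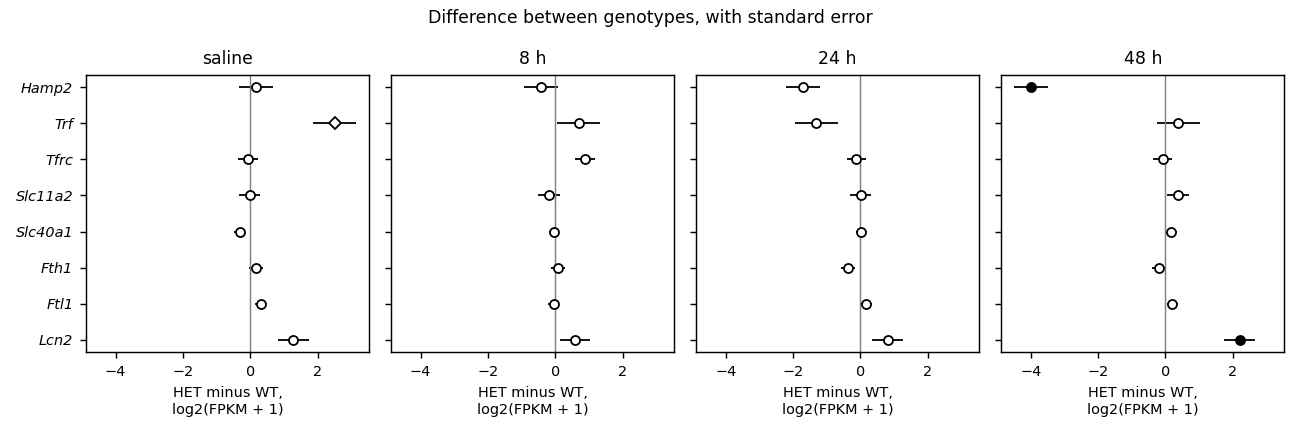
HET minus WT difference on the log2(FPKM + 1) scale with its standard error for the 8 iron genes in saline and at 8, 24 and 48 h after caerulein. Filled points passed an adjusted p of 0.05 and the diamond marks Trf in saline, chosen on that contrast. The filled points are Hamp2 (-3.99) and Lcn2 (2.20) at 48 h.

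Over time, each genotype was set against its own saline group for the members not chosen on that contrast. Hamp2, Lcn2 and Trf were left out, which leaves 5. In HET, 2 of 5 were called at 8 h (55.2% of all genes), 2 of 5 at 24 h (43.8%) and 3 of 5 at 48 h (44.2%). In WT, 4 of 5 were called at 8 h (51.0% of all genes), 0 of 5 by limma at 24 h (39.2%) and 1 of 5 at 48 h (25.3%). At an unadjusted p under 0.05 there were 2 of 5 in WT at 24 h, Fth1 and Ftl1, with or without moderation. Comparing 48 h with 8 h, 3 of 8 members were called in HET (52.0% of all genes) and 4 of 8 in WT (50.0%). No test sets these shares apart from those of all genes. The genotype difference in the 48 h against 8 h change was called for 1 of 8 members, Hamp2, against 0.723% of all genes. For 24 h against saline it was called by limma for 0 of the 5 members not chosen on it (2.31% of all genes), and none of the 5 had an unadjusted p under 0.05 with or without moderation.

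Hamp2 (ENSMUSG00000056978, chr7:30922372-30924681, minus strand, GRCm38), the pancreatic hepcidin gene, was abundant in saline and fell after caerulein. In saline it had 721, 383 and 232 FPKM in HET pancreas, against 303, 412 and 360 FPKM in WT pancreas. The saline ranges overlapped, and the highest HET value was in replicate 1, the library with the highest sum of all genes. At 8 h the values were 20.1, 23.4 and 24.7 FPKM in HET, against 24.1, 42.7 and 28.2 FPKM in WT, again with overlap. At 24 h they were 0.654, 2.67 and 2.44 FPKM in HET, against 7.62, 11.2 and 5.88 FPKM in WT. At 48 h they were 6.82, 2.77 and 0.328 FPKM in HET, against 84.1, 33.6 and 52.1 FPKM in WT. The genotypes did not overlap at 24 or 48 h, and the lowest value of all stood in HET 48 h replicate 3.

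Relative to saline, mean Hamp2 in HET was 19.6-fold lower at 8 h, 232-fold at 24 h and 135-fold at 48 h. In WT it was 11.3-fold lower at 8 h, 43.5-fold at 24 h and 6.33-fold at 48 h. These falls chose the gene and carry no test. The HET values at 24 h and that of HET 48 h replicate 3 rest on few fragments. The FPKM worth of about 1 fragment, estimated as the median of the 10 lowest non-zero values among 404 genes of similar length, put Hamp2 at about 2.07, 9.66 and 8.49 such units in HET at 24 h and 12.5, 31.1 and 13.3 in WT. At 48 h it was about 59.6, 31.3 and 4.13 units in HET and 279, 184 and 193 in WT.

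The genotype difference of Hamp2 at 48 h was -3.99 ± 0.51 on the log2(FPKM + 1) scale (SE, limma adjusted p = 0.000127), with means of 3.31 ± 3.28 FPKM in HET and 56.6 ± 25.6 FPKM in WT (SD, n = 3 each), a 17.1-fold lower mean. Averaged over the 3 caerulein times it was -2.04 ± 0.29 (limma adjusted p = 0.00019). At 24 h it was -1.71 ± 0.51 (limma adjusted p = 0.0524), with means of 1.92 ± 1.10 FPKM in HET and 8.23 ± 2.71 FPKM in WT. Without HET 48 h replicate 3 the 48 h difference was -3.31 (limma adjusted p = 0.000431). With the spread estimated from the compared groups only it missed the threshold (limma adjusted p = 0.0737).

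From 8 to 48 h the genotypes took different courses. Hamp2 was lower at 48 h than at 8 h in HET, by -2.80 ± 0.51 (limma adjusted p = 0.00014), a 6.88-fold lower mean. In WT the 48 h minus 8 h difference was 0.76 ± 0.51 (limma adjusted p = 0.228). The difference between these changes, HET minus WT, was -3.56 ± 0.72 (limma adjusted p = 0.0313), but this call was lost in 9 of 12 fits that each left out 1 library (adjusted p of 0.0502 to 0.114 in those 9), each of the HET and WT 8 h libraries but WT replicate 2 included.

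Acinar markers, like Hamp2, were lower in HET than in WT at 24 and 48 h with no overlap. Their sum over 8 markers at 48 h was 6869, 3255 and 305.5 FPKM in HET, against 47763, 20176 and 29656 FPKM in WT. At 24 h it was 7809 to 8759 FPKM in HET and 19406 to 23207 FPKM in WT. At 8 h it was 34230 to 37884 FPKM in HET and 32018 to 59095 FPKM in WT. Over time the means did not always move alike. From 8 to 48 h in WT the mean acinar sum was lower at 48 h (32531 FPKM, against 45412 FPKM at 8 h). Mean Hamp2 was higher (56.6 FPKM, against 31.7 FPKM), and the ranges of both overlapped. Neither change was called: Hamp2 had a limma adjusted p of 0.228. Of 8 acinar markers tested 0 were called by limma (50.0% of all genes), and 1 had an unadjusted p under 0.05. From 24 to 48 h in HET the mean acinar sum was also lower at 48 h (3477 FPKM, against 8257 FPKM at 24 h). Mean Hamp2 was 3.31 FPKM at 48 h, against 1.92 FPKM at 24 h, with overlapping ranges and no test. The 24 and 48 h libraries differ by preparation guide as well, so time and guide cannot be told apart here. Within each 48 h group, Hamp2 and the acinar sum put the 3 libraries in the same order. None of the 8 summed markers was at 0 in all 3 libraries of a group. With the mean of these markers as a covariate, a fit chosen after seeing the data, the 48 h difference in Hamp2 was -1.66 (limma adjusted p = 0.84) and the mean caerulein difference -0.81 (limma adjusted p = 0.423). At 48 h that mean lay at 3.839 to 7.749 in HET and 9.014 to 10.106 in WT (log2 scale). With no overlap, the fit cannot separate genotype from acinar markers, so the lost calls decide nothing. The genes most like Hamp2 over the 24 libraries, by Pearson r of log2(FPKM + 1), were Nat8f1 (0.987), Ero1lb (0.986), which encodes an oxidoreductase of the endoplasmic reticulum, and Tmed11 (0.983). These r values describe libraries that share treatments and carry no test.

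**Figure D3:**
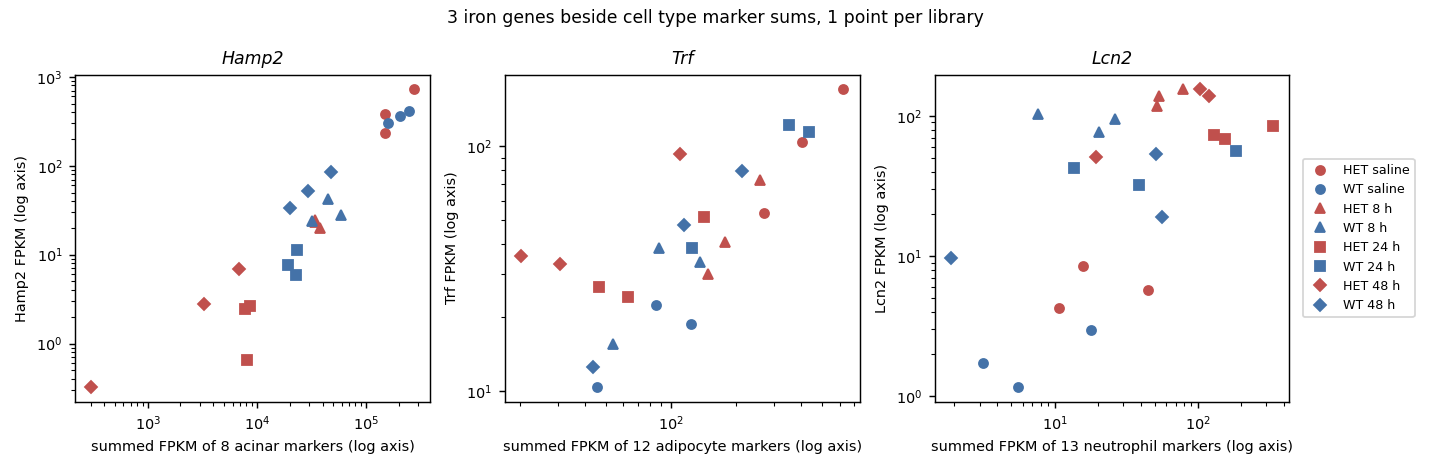
FPKM of Hamp2, Trf and Lcn2 (log axes) against the summed FPKM of 8 acinar, 12 adipocyte and 13 neutrophil markers, 1 point per library, HET in red and WT in blue, with the treatment given by the symbol. Hamp2 is lowest where the acinar sum is lowest (0.328 FPKM beside 305.5 FPKM in HET 48 h replicate 3), and the highest Trf value, 171 FPKM, lies beside the highest adipocyte sum, 624.9 FPKM.

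Trf (ENSMUSG00000032554, chr9:103204001-103230444, minus strand, GRCm38) encodes transferrin, the plasma iron carrier made mainly by hepatocytes and also by other cells. In saline it had 53.4, 171 and 104 FPKM in HET pancreas, against 10.4, 18.7 and 22.5 FPKM in WT pancreas, with no overlap. This difference of 2.51 ± 0.64 (log2 scale, SE) chose the gene and carries no test. The order of the means was turned at 24 h, when Trf had 26.7, 24.3 and 51.6 FPKM in HET, against 115, 122 and 38.5 FPKM in WT. That difference was -1.31 ± 0.64 (limma adjusted p = 0.251), with overlapping ranges. At 8 h the values were 40.6, 72.9 and 30.0 FPKM in HET, against 33.6, 38.4 and 15.6 FPKM in WT. At 48 h they were 33.0, 92.8 and 35.7 FPKM in HET, against 12.5, 79.1 and 47.6 FPKM in WT. Both of these times overlapped.

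Set against their own saline groups, whose values chose the gene, the 24 h values carry no test. The difference was -1.58 ± 0.64 in HET at 24 h (SE), a 3.2-fold lower mean. In WT it was 2.25 ± 0.64, with a mean of 91.8 FPKM at 24 h, against 17.2 FPKM in saline, which is 5.34-fold higher. The HET comparison at 24 h lies within the earlier preparation guide. The WT one does too, except for WT saline replicate 3, which is in neither guide list. The other HET differences from saline were -1.12 at 8 h and -1.02 at 48 h, and those of WT 0.70 at 8 h and 1.10 at 48 h.

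Adipocyte markers had the genotype order of mean Trf in saline and at 8 and 24 h but not at 48 h. All 12 listed were above 0 in each group. Their sum in saline was 269.8, 624.9 and 400.1 FPKM in HET, against 45.3, 123.5 and 84.95 FPKM in WT. At 24 h it was 46.28, 63.07 and 142.2 FPKM in HET, against 432.6, 349.9 and 124.4 FPKM in WT. The mean sum at 8 h was 194.3 FPKM in HET and 92.44 FPKM in WT. By 48 h it was 53.5 FPKM in HET and 123 FPKM in WT, while mean Trf was 53.8 FPKM in HET and 46.4 FPKM in WT. The WT 24 h library with the lowest Trf was also lowest for these markers. It was lowest for neutrophil, macrophage, fibroblast, endothelial, B cell and T cell markers too, but not for the other lists. In saline macrophage markers summed to 284.1 to 624.3 FPKM in HET and 93.65 to 226.7 FPKM in WT. Fibroblast markers summed to 393.4 to 741.1 FPKM in HET and 221.3 to 301.5 FPKM in WT. At 24 h the mean macrophage sum was 1085 FPKM in HET and 807.7 FPKM in WT, and the mean fibroblast sum 566.5 and 801.7 FPKM. With the adipocyte marker mean as a covariate, the saline difference in Trf was 0.32, and the WT difference of 24 h against saline was 0.56. The saline sums did not overlap between genotypes, so that fit cannot separate genotype from adipocyte markers there. The 8 hepatocyte markers were low and summed to 24.57 to 68.02 FPKM in HET and 24.95 to 34.06 FPKM in WT saline pancreas. At 24 h they summed to 1.738 to 2.154 FPKM in HET and 3.606 to 5.18 FPKM in WT. In saline Fgb and Serpina1a were at 0 in all libraries of both genotypes, and Apoa1 and Fga in all HET libraries. At 24 h Apoa1 and Serpina1a were at 0 throughout HET, and Fga and Fgb throughout WT. Only 2 of the 8 passed the filter on low values. The genes most like Trf were C3 (Pearson r 0.910 over 24 libraries), a complement protein, Adipoq (0.891), the adipocyte hormone adiponectin, and H2-Aa (0.886), an antigen-presenting molecule.

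Tfrc (ENSMUSG00000022797, chr16:32608920-32632794, plus strand, GRCm38), the transferrin receptor through which cells take up iron-loaded transferrin, was low at 8 h in WT. At that time it had 2.80, 8.33 and 2.28 FPKM in HET, against 1.88, 1.64 and 1.51 FPKM in WT. These ranges did not overlap, but the HET values were spread by replicate 2 and the difference of 0.87 ± 0.30 did not pass (limma adjusted p = 0.607). In saline it had 5.19, 4.81 and 4.74 FPKM in HET, against 6.25, 5.46 and 4.11 FPKM in WT. In WT, Tfrc at 8 h was 3.15-fold below saline in the mean (-1.22 ± 0.30, limma adjusted p = 0.00183), and at 48 h it was 3.11-fold above 8 h (1.21 ± 0.30, limma adjusted p = 0.00204). By 48 h the values were 7.72, 4.35 and 3.24 FPKM in HET, against 5.53, 5.56 and 4.56 FPKM in WT. In HET neither of these changes passed: 8 h against saline was -0.28 ± 0.30 (limma adjusted p = 0.454) and 48 h against 8 h was 0.26 ± 0.30 (limma adjusted p = 0.497). The genotype difference in the 48 h against 8 h change was -0.96 ± 0.42 (limma adjusted p = 0.337), so a difference between the genotypes was not shown.

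Slc11a2 (ENSMUSG00000023030, chr15:100387898-100425072, minus strand, GRCm38), which encodes the iron importer DMT1, had its lowest mean at 8 h in both genotypes. The 8 h values were 3.74, 3.95 and 6.87 FPKM in HET, against 4.34, 6.20 and 6.16 FPKM in WT. The saline values were 7.35, 15.9 and 23.2 FPKM in HET, against 20.4, 13.4 and 10.5 FPKM in WT. The genotypes overlapped in all 4 conditions, and within each genotype the 8 h values lay below every saline value. The 8 h fall was 3.19-fold in the mean in HET (-1.40 ± 0.32, limma adjusted p = 0.00101) and 2.65-fold in WT (-1.23 ± 0.32, limma adjusted p = 0.00326). At 48 h it had 13.3, 9.08 and 10.1 FPKM in HET, against 10.6, 5.71 and 8.50 FPKM in WT. The 48 h level was above that of 8 h in HET (1.04 ± 0.32, limma adjusted p = 0.0108; 0.74 with the adipocyte covariate, limma adjusted p = 0.078), while in WT the difference was 0.48 ± 0.32 (limma adjusted p = 0.233). Slc11a2 has isoforms with different ends, which a single value per gene does not separate.

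Slc40a1 (ENSMUSG00000025993, chr1:45908068-45926523, minus strand, GRCm38), the iron exporter ferroportin, was the least abundant member. At 8 h it had 1.03, 1.22 and 1.65 FPKM in HET, against 1.26, 1.54 and 1.25 FPKM in WT. Saline values were 1.52, 1.91 and 2.09 FPKM in HET, against 2.42, 2.70 and 2.41 FPKM in WT. HET lay below WT in saline with no overlap, yet the difference of -0.31 ± 0.16 did not pass (limma adjusted p = 0.279). At 48 h it had 2.86, 2.78 and 3.94 FPKM in HET, against 2.15, 3.41 and 2.62 FPKM in WT. In both genotypes the 48 h values lay above all 8 h values of that genotype, 2.46-fold in the mean in HET (0.86 ± 0.16, limma adjusted p = 0.000123) and 2.02-fold in WT (0.65 ± 0.16, limma adjusted p = 0.00179). Against saline, it fell in WT at 8 h (-0.58 ± 0.16, limma adjusted p = 0.00415) and rose in HET at 48 h (0.56 ± 0.16, limma adjusted p = 0.00728). The HET rise was lost without HET 48 h replicate 3 (0.43, limma adjusted p = 0.055) and with the adipocyte covariate (0.52, limma adjusted p = 0.0719), and the WT fall when enzyme and Reg genes were left out of the library totals (-0.51, limma adjusted p = 0.0948).

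The ferritin subunits form the shell that stores iron, and the heavy chain Fth1 (ENSMUSG00000024661, chr19:9980598-9985098, plus strand, GRCm38) oxidises it. Fth1 was high in saline, with 1270, 794 and 798 FPKM in HET, against 887, 758 and 821 FPKM in WT. At 8 h it had 353, 416 and 399 FPKM in HET, against 302, 409 and 408 FPKM in WT. Every 8 h value lay below every saline value, and the genotypes overlapped. The fall was 2.45-fold in the mean in HET (-1.26 ± 0.20, limma adjusted p = 3.1e-05) and 2.20-fold in WT (-1.15 ± 0.20, limma adjusted p = 9.3e-05), and it was called in HET and WT under every alternative that was run. At 24 h Fth1 had 526, 408 and 472 FPKM in HET, against 762, 590 and 477 FPKM in WT. At 48 h it had 403, 529 and 396 FPKM in HET, against 511, 496 and 496 FPKM in WT, overlapping as at 24 h. Later differences from saline depend on the scaling. On the authors' scale they were -0.995 ± 0.204 at 24 h and -1.08 ± 0.20 at 48 h in HET (limma adjusted p = 0.000611 and 0.000299). When libraries were rescaled with enzyme and Reg genes left out of the totals, which moved the median of all genes by 0.77 in HET at both times, the same differences were 0.15 and 0.05 (limma adjusted p = 0.544 and 0.852). In WT the 48 h difference was -0.71 ± 0.20 (limma adjusted p = 0.0154), or -0.06 with that scaling, which moved the median by 0.43.

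Ftl1 (ENSMUSG00000050708, chr7:45457944-45459884, minus strand, GRCm38), the light chain that aids mineral formation in the shell, kept its level at 8 h more closely. It had 338, 328 and 392 FPKM in HET and 325, 382 and 387 FPKM in WT at 8 h. Saline Ftl1 was 483, 359 and 352 FPKM in HET, against 255, 409 and 300 FPKM in WT. The 8 h differences from saline were -0.16 ± 0.16 in HET and 0.21 ± 0.16 in WT (limma adjusted p = 0.422 and 0.317). At 24 h it had 270, 267 and 283 FPKM in HET, against 214, 268 and 248 FPKM in WT. At 48 h it had 254, 294 and 273 FPKM in HET, against 247, 238 and 227 FPKM in WT. These 48 h ranges did not overlap, but the difference of 0.20 ± 0.16 did not pass (limma adjusted p = 0.471). On the authors' scale, Ftl1 was lower at 48 h than at 8 h in WT (-0.61 ± 0.16, limma adjusted p = 0.0041). It was also lower than saline in HET at 24 and 48 h (-0.53 ± 0.16 at both, limma adjusted p = 0.0138 and 0.0137). With enzyme and Reg genes left out of the totals the WT difference was 0.05 (limma adjusted p = 0.843), where the median of all genes moved by 0.45. With that scaling the HET differences were called higher than saline, at 0.61 and 0.60 (limma adjusted p = 0.011 and 0.0123). The median of all genes moved by 0.77 at both of these times. On the authors' scale, without HET saline replicate 1, the library with the highest sum, both HET differences missed the threshold (-0.38 at each, limma adjusted p = 0.0743 and 0.0753). So did the 48 h difference without HET 48 h replicate 1 (-0.47, limma adjusted p = 0.0501). Listed ferritin copies were at or near 0: Ftl2-ps reached 0.81 FPKM, Fth-ps2 0.222 FPKM, and Ftl1-ps1 was at 0 in all libraries, so how the authors' processing treated reads shared with such copies is not visible in the table.

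Lcn2 (ENSMUSG00000026822, chr2:32384633-32388252, minus strand, GRCm38) encodes lipocalin-2, a secreted acute phase protein that binds iron-carrying siderophores and is made by neutrophils, macrophages and injured epithelia. In saline it had 4.25, 5.76 and 8.53 FPKM in HET, against 1.73, 1.17 and 2.95 FPKM in WT. At 8 h it had 118, 140 and 155 FPKM in HET, against 77.4, 95.4 and 103 FPKM in WT. At 24 h it had 85.4, 73.8 and 68.2 FPKM in HET, against 56.7, 32.0 and 42.8 FPKM in WT. HET lay above WT without overlap in all of these, although none of the 3 differences passed (1.28 ± 0.45 in saline, limma adjusted p = 0.122; 0.58 ± 0.45 at 8 h, limma adjusted p = 1; 0.81 ± 0.45 at 24 h, limma adjusted p = 0.326). At 48 h it had 51.1, 155 and 138 FPKM in HET, against 9.71, 53.2 and 19.0 FPKM in WT. Here the lowest HET library lay within the WT range, below WT replicate 2.

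The 48 h difference in Lcn2 was 2.20 ± 0.45 (limma adjusted p = 0.00395), with means of 115 ± 55.7 FPKM in HET and 27.3 ± 22.9 FPKM in WT (SD, n = 3 each), a 4.2-fold higher mean. Averaged over the 3 caerulein times it was 1.20 ± 0.26 (limma adjusted p = 0.0039). It was called in each fit without 1 library, but not at 48 h when the spread came from the 2 compared groups only (limma adjusted p = 0.12). The rise after caerulein chose the gene: mean Lcn2 in HET was 22.3-fold above saline at 8 h, 12.3-fold at 24 h and 18.6-fold at 48 h. In WT it was 47.1-fold above saline at 8 h, 22.5-fold at 24 h and 14.0-fold at 48 h. From 8 to 48 h Lcn2 fell in WT (-2.03 ± 0.45, limma adjusted p = 0.000944), whereas in HET the difference was -0.40 ± 0.45 (limma adjusted p = 0.478). The difference between these changes was 1.62 ± 0.64 (limma adjusted p = 0.27), so a difference between the genotypes was not shown.

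Of the markers of infiltrating cells, those of macrophages were higher in HET at 48 h, with 7 of 14 called higher and 0 lower (12.2% of all genes). Of the neutrophil markers 0 of 10 tested were called by limma at 48 h, and 1 at an unadjusted p under 0.05. In the mean of the 3 caerulein times 5 of 10 were called higher in HET and 0 lower (17.2% of all genes). At 8 h 2 of 10 were called higher (0.218% of all genes) and at 24 h 2 of 10 (6.50%), with 0 lower at either time. None of 6 B cell and 5 T cell markers tested was called by limma at 48 h (0 of each at an unadjusted p under 0.05). Their median differences were -0.39 and -0.11. Neutrophil markers, 13 listed, summed at 48 h to 19.38, 103.4 and 118.4 FPKM in HET, against 1.894, 50.57 and 55.65 FPKM in WT, overlapping, with Ly6g at 0 in all 3 WT libraries. The lowest library of each genotype for these markers was also its lowest for Lcn2. Macrophage markers, 14 listed, summed at 48 h to 980.9 to 1729 FPKM in HET and 311.2 to 1058 FPKM in WT. At 8 h, when Lcn2 was high, neutrophil markers summed to 51.87 to 78.32 FPKM in HET and 7.691 to 26.22 FPKM in WT. With the neutrophil marker mean as a covariate, chosen after seeing the data, the 48 h difference in Lcn2 was 1.82 (limma adjusted p = 0.00466) and the mean caerulein difference 0.74 (limma adjusted p = 0.0612). With the acinar marker mean the 48 h difference was 0.88 (limma adjusted p = 0.998). Acinar markers did not overlap between genotypes at 48 h, so that fit cannot separate them from genotype. The genes most like Lcn2 over the 24 libraries were Clic1 (Pearson r 0.966), Il4ra (0.965), a subunit of the interleukin-4 receptor, and Tmsb10 (0.955), an actin-binding thymosin.

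The other genes of iron handling were read from 7 lists of 75 genes in all, of which 63 passed the filter on low values. In HET against WT, 2 were called higher and 0 lower in saline, which is 3.17% of the 63, beside 2.36% of all genes. At 8 h 1 was higher and 0 lower (1.59%, beside 0.218% of all genes). At 24 h 2 were higher and 2 lower (6.35%, beside 6.50%), and at 48 h 3 were higher and 1 lower (6.35%, beside 12.2%). No test sets these shares apart. Their median difference at 48 h was 0.05, beside 0.03 for all genes tested. With enzyme and Reg genes left out of the totals, which moved the median of all genes by 0.37, 14 were higher and 1 lower at 48 h, beside 3419 higher and 326 lower of all genes.

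Scara5, a ferritin receptor, was the 1 other iron gene lower in HET at 48 h. It had 2.38, 2.05 and 1.82 FPKM in HET, against 4.96, 7.36 and 8.88 FPKM in WT, a difference of -1.36 ± 0.19 (limma adjusted p = 0.000252) with no overlap. It was lower at 24 h too, with 0.619, 0.470 and 0.696 FPKM in HET, against 2.11, 2.62 and 1.27 FPKM in WT (-0.89 ± 0.19, limma adjusted p = 0.0102), a call lost with enzyme and Reg genes left out of the totals (-0.93, limma adjusted p = 0.076). Its 48 h against 8 h change differed between genotypes by -1.21 ± 0.27 (limma adjusted p = 0.0456), a call lost in the same way (-0.99, limma adjusted p = 0.297).

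Of 10 haem and haemoglobin genes tested at 48 h, 2 were called higher and 0 lower in HET (20.0%, beside 12.2% of all genes). Hmox1, the haem oxygenase that frees iron from haem, had 23.9, 32.2 and 50.8 FPKM in HET, against 7.42, 29.2 and 9.84 FPKM in WT (1.32 ± 0.40, limma adjusted p = 0.0366), with overlapping ranges. Blvra, the biliverdin reductase that acts after it, differed by 0.59 ± 0.17 (limma adjusted p = 0.0272).

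Among genes that regulate hepcidin in liver, Il6 was higher in HET at 8 h, with 5.13, 3.72 and 5.55 FPKM in HET, against 0.662, 1.59 and 0.0913 FPKM in WT (1.78 ± 0.28, limma adjusted p = 0.00782). It was higher at 24 h too (1.18 ± 0.28, limma adjusted p = 0.0178). Atoh8, a transcription factor known to act on the hepcidin promoter, was lower at 24 h, with 0.214, 0.679 and 0.464 FPKM in HET, against 1.94, 1.8 and 3.2 FPKM in WT (-1.18 ± 0.19, limma adjusted p = 0.0012). Smad1, which relays BMP signals, was higher at 48 h by 0.44 ± 0.12 (limma adjusted p = 0.0207). Fbxl5, the iron-sensing ligase subunit that removes an iron regulatory protein, was higher at 24 h by 0.57 ± 0.16 (limma adjusted p = 0.0426). In saline the called genes were Steap3, an endosomal ferrireductase (0.85 ± 0.21, limma adjusted p = 0.0405), and Bdh2, which makes a mammalian siderophore (1.94 ± 0.33, limma adjusted p = 0.00448), both higher in HET. With enzyme and Reg genes left out of the totals, Fbxl5 at 24 h (0.76, limma adjusted p = 0.0777) and Steap3 in saline (0.81, limma adjusted p = 0.511) were not called.

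From 8 to 48 h the same lists moved in both directions. In HET 16 of 63 genes were higher and 18 lower at 48 h (54.0% called, beside 52.0% of all genes), and in WT 16 were higher and 17 lower (52.4%, beside 50.0%). These splits depend on the scaling: with enzyme and Reg genes left out of the totals, 37 were higher and 4 lower in HET and 34 and 5 in WT, beside 7102 higher and 1169 lower of all genes in HET and 5179 and 1424 in WT, while the median of all genes moved by 0.71 in HET and 0.45 in WT. Genes named next kept their sign under it, and all stayed called in both genotypes except Slc39a8 in WT. Of the uptake genes, Steap3 was higher at 48 h by 1.21 ± 0.21 in HET and 1.07 ± 0.21 in WT (limma adjusted p = 9.19e-05 and 0.000329), and Slc39a8, a zinc and iron transporter, was lower by -1.34 ± 0.16 in HET and -1.02 ± 0.16 in WT (limma adjusted p = 1.2e-06 and 3.5e-05), or -0.50 in HET and -0.44 in WT with that scaling (limma adjusted p = 0.0319 and 0.0674). Hfe, which takes part in iron sensing upstream of hepcidin, was higher by 1.94 ± 0.27 in HET and 1.30 ± 0.27 in WT (limma adjusted p = 5.31e-06 and 0.00043). Its list went mostly the other way on the authors' scale: of 19 hepcidin regulation genes tested, 3 were higher and 9 lower in each genotype (63.2% called). Blvrb, a flavin and biliverdin reductase, was higher by 2.06 ± 0.26 in HET and 1.56 ± 0.26 in WT (limma adjusted p = 1.73e-06 and 4.92e-05). Of the 10 haem and haemoglobin genes tested, 4 were higher and 3 lower in HET (70.0% called), and 3 and 3 in WT (60.0%).

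Of 17 mitochondrial genes of iron-sulphur cluster and haem synthesis, 10 were lower and 1 higher at 8 h than in saline in HET (64.7% called, beside 55.2% of all genes), and 10 lower and 0 higher in WT (58.8%, beside 51.0%). Their median difference was -0.67 in HET and -0.56 in WT, beside 0.01 and 0.05 for all genes, and no test sets the list apart. With enzyme and Reg genes left out of the totals 9 were lower in HET and 8 in WT, beside 2043 and 2200 lower of all genes. Without that rescaling, 4 of the 17 were higher and 1 lower at 48 h than at 8 h in HET (29.4% called, beside 52.0% of all genes). In WT 6 were higher and 1 lower (41.2%, beside 50.0%). Against saline, 11 were lower and 0 higher at 48 h in HET (64.7%, beside 44.2%), and 7 lower and 0 higher in WT (41.2%, beside 25.3%). By 48 h, Hscb, a cochaperone of iron-sulphur cluster assembly, was above its 8 h level by 1.69 ± 0.27 in HET and 1.43 ± 0.27 in WT (limma adjusted p = 2.59e-05 and 0.000168), and Fech, which inserts iron into haem, by 0.50 ± 0.12 in HET and 0.75 ± 0.12 in WT (limma adjusted p = 0.00141 and 2.77e-05). Slc25a28, the mitochondrial iron importer mitoferrin-2, was lower by -1.49 ± 0.19 in HET and -1.23 ± 0.19 in WT (limma adjusted p = 1.93e-06 and 2.14e-05), or -0.61 in both with that scaling (limma adjusted p = 0.0128 and 0.0171). Slc22a17, a lipocalin-2 receptor, was higher at 48 h than at 8 h by 0.45 ± 0.15 in HET and 0.97 ± 0.15 in WT (limma adjusted p = 0.0148 and 1.79e-05), at means of 1.07 FPKM in HET and 1.81 FPKM in WT at 48 h.

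**Figure D4:**
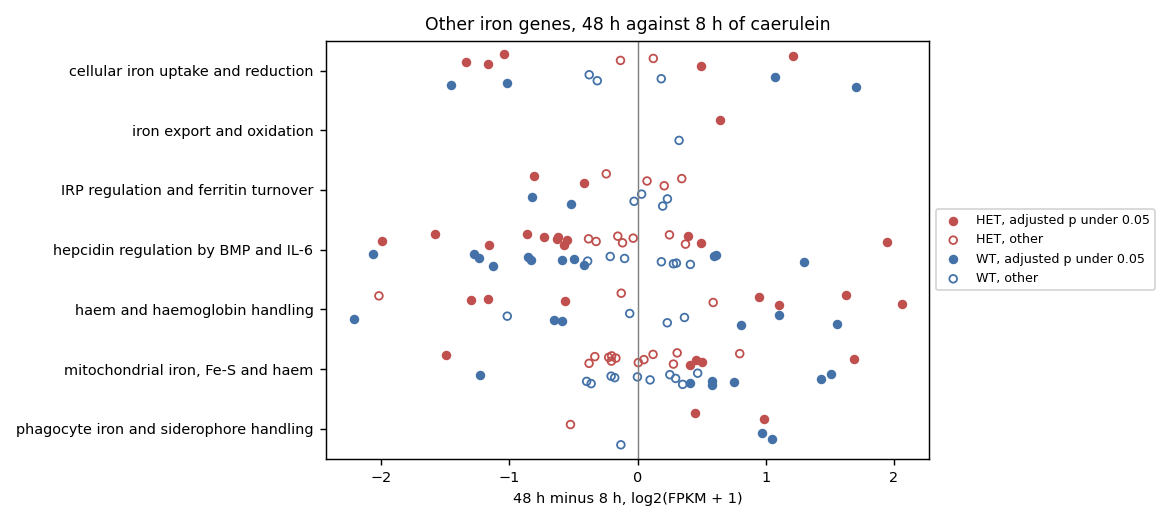
Difference between 48 h and 8 h of caerulein on the log2(FPKM + 1) scale for the 63 other iron genes tested, by list, with HET in red above WT in blue and filled points for an adjusted p under 0.05. In HET 16 genes are filled on the right and 18 on the left, in WT 16 and 17, on the authors' scale; with enzyme and Reg genes left out of the totals the splits were 37 and 4 in HET and 34 and 5 in WT.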

How the data were processed

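FPKM values for 24 libraries were used as the authors deposited them, 1 line per gene. The submitters' processing notes list Cufflinks 2.0.2, Cuffnorm, Bowtie and CASAVA 1.8 and the mouse build mm9, with no role or order. The table's header names no unit, so FPKM was inferred from these tools and from values that are not whole numbers. Sequencing depth is unknown and no counting error could be given. Per the labels' protocols, RNA integrity numbers were 6.6 to 9.2, and libraries were amplified for 10 cycles (earlier guide) or 8 cycles (v2 guide).

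Groups came from the genotype and treatment labels. limma 3.58.1 in R 4.3.3 (trend and robust moderation, two-sided) was fitted to log2(FPKM + 1), with 1 mean per group and 16 residual degrees of freedom. Genes needed at least 1 FPKM in at least 3 libraries. Fold changes on this scale understate changes of low genes. P-values were adjusted by the Benjamini-Hochberg method over all genes of a comparison, with a threshold of 0.05. In 22 genes a group entirely at 0 was treated as missing because all libraries of some other group reached 100 FPKM. Symbols came from the table and the reference, which named 31840 of 36806 genes.

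The 8 genes and all lists were chosen with earlier results of these data known. The text names all 8, up to 3 genes per list with the smallest adjusted p in the comparison described, and the 3 genes most like a member. Alternatives changed pseudocount, filter, scaling, spread, moderation, missing zeros and covariates, or left out 1 library. Nothing in the labels states whether animals shared a litter or day. Figures were drawn with matplotlib 3.10.9 in Python 3.11.15.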

Additional observations from a re-analysis of the deposited data

Results flagged for a closer look

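The change of Hamp2 between 8 and 48 h differed between genotypes by a test of the difference itself. The HET change was -2.80 and the WT change 0.76 on the log2(FPKM + 1) scale, and HET minus WT was -3.56 ± 0.72 (SE, limma adjusted p = 0.0313, 3 animals per group). Hamp2 was chosen for its fall after caerulein, in libraries that this test also uses. All 3 HET libraries at 48 h lay below all 3 WT libraries, with means of 3.31 FPKM in HET and 56.6 FPKM in WT. The call was lost in 9 of 12 fits without 1 library, and its adjusted p ran from 0.00271 to 0.991 over the alternatives. The acinar marker sum at 48 h averaged 3477 FPKM in HET and 32531 FPKM in WT. With the acinar marker mean as a covariate the difference was -1.49 (limma adjusted p = 0.991). Acinar markers did not overlap between genotypes at 48 h, so that fit cannot separate them from genotype. Their part in the result was not tested further.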

How the results depend on the processing

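The genotype calls of Hamp2 and Lcn2 at 48 h held in all 6 fits without 1 library (2 calls in each) and under the alternatives run except those named next. Calls among the 8 genes changed as follows, and the cause was not tested. With the spread estimated from the compared groups only, 0 were called in HET against WT at 48 h (2 as reported), 0 in the genotype by time difference of 48 h against 8 h (1 as reported) and 1 in HET at 24 h against saline (2), and Ftl1 in HET was lost at 24 h (limma adjusted p = 0.1) and 48 h (limma adjusted p = 0.138). A pseudocount of 0.1 also left 0 in that genotype by time difference. With enzyme and Reg genes left out of the totals there were 3 in WT at 24 h against saline (0), 0 in WT at 48 h (1), 6 in HET at 48 h against 8 h (3) and 0 in the genotype by time difference (1). Of all genes, 61.8%, 31.2%, 62.6% and 0.0606% were called with that scaling, in the same order. No test sets the members apart from these shares. For the other fits in this paragraph no share of all genes is given, so their counts are not a result about the members. The adipocyte covariate gave 1 in HET at 48 h against saline (3), where Slc40a1 (limma adjusted p = 0.0719) and Ftl1 (limma adjusted p = 0.0619) were lost, and 2 in the genotype by time difference; it also lost Slc11a2 in HET at 48 h against 8 h (limma adjusted p = 0.078). The neutrophil covariate gave 1 in HET against WT at 24 h (0), 1 in the mean caerulein difference (2) and 1 in HET at 24 h against saline (2), where Ftl1 was lost (limma adjusted p = 0.107). The acinar covariate gave 0 in HET against WT at 48 h and in the mean, in HET at 24 and 48 h and WT at 48 h against saline, in HET at 48 h against 8 h, and in the genotype by time difference. Acinar markers did not overlap between genotypes at 24 and 48 h, so that covariate cannot be separated from genotype there. Leaving out 1 library gave 0 to 1 calls in WT at 24 h (1 without WT saline replicate 1 and without WT 24 h replicate 1), 0 to 1 in WT at 48 h (0 without WT 48 h replicate 2) and 0 to 2 in the genotype by time difference.

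Signs were reversed for Ftl1 in WT at 48 h against 8 h (0.054), Fth1 (0.147) and Ftl1 (0.615) in HET at 24 h, and Fth1 (0.046) and Ftl1 (0.601) in HET at 48 h, all with enzyme and Reg genes left out of the totals; for Trf in HET against saline at 48 h with that scaling (0.084) and at 8 h (0.067), 24 h (0.5) and 48 h (1.546) with the adipocyte covariate; for Slc40a1 in HET at 48 h with the acinar covariate (-0.039); and for Lcn2 in the genotype difference of 24 h against saline with the adipocyte covariate (0.799). Among these, the rescaled Ftl1 differences in HET at 24 and 48 h were called higher than saline (limma adjusted p = 0.011 and 0.0123). Fth1 in WT at 48 h against saline missed the threshold without WT saline replicate 1 (limma adjusted p = 0.0544) and without WT 48 h replicate 2 (limma adjusted p = 0.0504). No paired analysis was possible because the labels give no replicate numbers. The low Hamp2 values in HET at 24 h and in HET 48 h replicate 3 rest on few fragments.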
